A study of Arabidopsis thaliana with 31 samples.

Results

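The transcripts described here were chosen by the scatter of their 3′ ends in a poly(A)-seq library of wild-type Arabidopsis thaliana. Poly(A)-seq reads an mRNA from within its body through the poly(A) tail, so that the last base before the tail gives the place where the pre-mRNA was cleaved. For each gene the transcript with the most plus-strand alignments was taken, and each distinct combination of alignment start and alignment end within it was counted once as a pair. A transcript was a member when it held 30 pairs or more and no single end position held more than 10% of them. Of 18910 genes with plus-strand alignments, 4115 had a transcript with 30 pairs or more, and 114 of these met the rule, a share of 2.77%. Because the share of pairs at the most used end selected the members, it is given below as a description only.

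The study examined cytoplasmic poly(A)-binding proteins in wild-type Col, atpabs mutants and lines complemented with tagged AtPABs, and its 31 samples include this 1 poly(A)-seq library. The RNA came from whole seedlings of the ecotype Col, 2 weeks old and of wild-type genotype, grown on plates at the same temperature and day length as the rest of the series. Total RNA was treated with RNase T1, fragments carrying poly(A) were purified, and adaptors were ligated to them. The library held 2786281 alignments, of which 2661059 were on the plus strand of the named transcript. There was no replicate library, so no spread between plants is known. Every interval below is a 95% exact Clopper-Pearson interval that covers counting error only. It takes reads or transcripts as independent draws, so it is too narrow where reads copy the same molecule.

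In plants, as in other eukaryotes, the 3′ end of an mRNA forms when a protein complex cleaves the nascent RNA and a poly(A) polymerase adds the tail. Animal pre-mRNAs mostly carry a conserved AAUAAA hexamer a short way upstream of the cleavage site. Plant pre-mRNAs use a looser A-rich near-upstream element in that place, a far-upstream element rich in U and G, and a U-rich stretch around the site itself. Cleavage in plant genes is known to fall at several neighbouring positions rather than at a single base.

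The sequences below show what scattered and concentrated ends look like at the base level. Each is the 30-nt stretch of the transcript that held more of its read ends than any other, 5′ to 3′ in the sense of the transcript, from RefSeq TAIR10.1, and capitals mark bases at which at least 2% of the transcript's reads ended. The first 4 are members with scattered reads (AT2G11910, an uncharacterized protein; SSI2, a stearoyl-acyl carrier protein desaturase; CBR, an NADH:cytochrome b5 reductase; RPS18C, a ribosomal protein). The next pair are members with very many reads (PSBR of photosystem II and LHCA4 of the photosystem I antenna). AT2G01010 is a member annotated as 18S ribosomal RNA. UBQ3, a polyubiquitin gene, and DHAR1, a dehydroascorbate reductase, are contrasts that were not members, with 50.8 and 48.1% of their pairs at 1 end.
AT2G11910 (chr2:4805644-4805673, minus strand): tTagaatgtggtctcttCTCTTCctctCtt
SSI2 (chr2:18122753-18122782, plus strand): taagttCaggtTagtttTgttTtgtCTCtC
CBR (chr5:5864364-5864393, minus strand): cgaattggtTagacatTttggttCacCTaT
RPS18C (chr4:6175129-6175158, plus strand): tTaatttCCagctTactcTgcTTattgtcT
PSBR (chr1:29736897-29736926, plus strand): gtttgTaTaTaTattcatcttcctatCctt
LHCA4 (chr3:17493423-17493452, minus strand): TaatCaaCattgttgtacTCttTaaTatCT
AT2G01010 (chr2:5484-5513, plus strand): tccgtaggtgaacctgcggaaggatcatTG
UBQ3 (chr5:771736-771765, minus strand): tTaaacaatttgtCatctgtttcggctttg
DHAR1 (chr1:6773308-6773337, minus strand): ttttGaaataagatttgcctcCatatcGaa
All of these stretches lie in annotated 3′-UTRs except that of AT2G01010, whose capitals are the last bases of the annotated RNA. The stretch of AT2G11910 held 50.4% of its 246 reads at 20 of its bases, and that of CBR 38.8% of its 366 reads. The stretch of UBQ3 held 98.9% of its 904 reads, with 91.5% at a single base, the T before its first run of A's. All reads of AT2G11910, SSI2, AT2G01010 and UBQ3 had a mapping quality of 0 or 1, which marks reads that fit elsewhere as well. In these sequences the capitals fell on T, C or G and never on A. The removal of the tail also takes genomic A's that touch it.

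The label of scattered ends held for only part of the members. The alignments were 16 to 137 nt long, so that a single end position can be reached from at most 122 start positions and can hold at most 122 pairs, however many reads fall there. A transcript with 1220 pairs or more therefore meets the limit of 10% by arithmetic, and 16 of the 114 members were of this kind. Of the 1602 transcripts with 30 to 49 pairs, 11 (0.687%) were members. The number was 16 of 1396 at 50 to 99 pairs, 21 of 700 at 100 to 199, 25 of 343 at 200 to 499 and 15 of 48 at 500 to 999. All 26 transcripts with 1000 pairs or more were members.

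**Figure D1:**
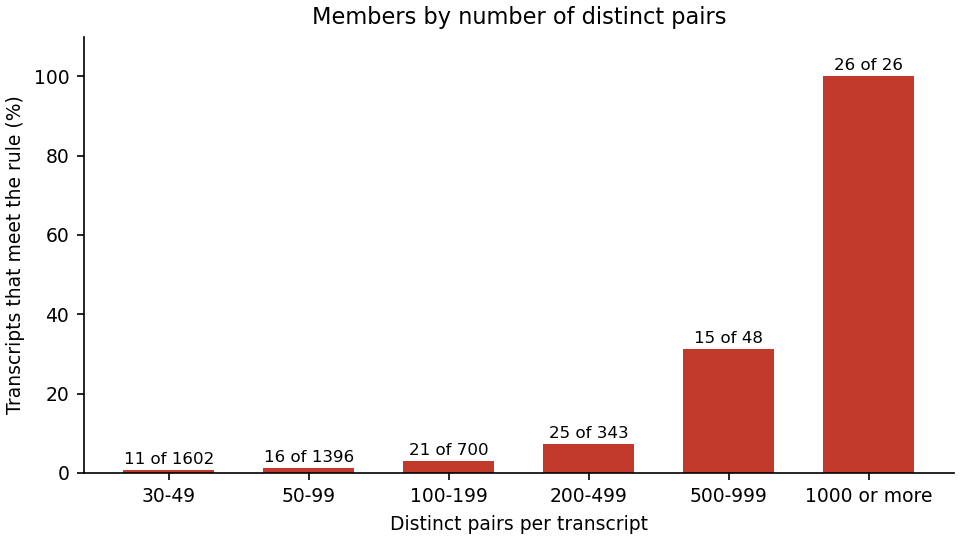
Share of transcripts that met the rule (vertical axis, %) by the number of distinct pairs per transcript (horizontal axis), with the members and the transcripts in each class above the bar. The share was 0.687% at 30 to 49 pairs, 31.2% at 500 to 999 and 100% at 1000 or more.

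Counted by reads, the ends of the most deeply read members were less evenly spread than by pairs. Of the 26 with 1000 pairs or more, 5 had over 50% of their reads at 1 end and 6 had up to 20%. In PSBR, the end with the most reads took 18368 of 30913 reads, 59.4% (58.87 to 59.97), but only 6.98% of the pairs. That base had 104 of the 122 possible start positions. LHB1B2, a chlorophyll a/b-binding protein of the photosystem II antenna, had 73.9% of its 32884 reads at 1 end, and RBCS1A, a small subunit of Rubisco, had 57.7% of 22296. PSAG of photosystem I had 37.1% of 39788. The share was 38.7% of 21494 reads in TCTP, the translationally controlled tumor protein, 33.6% of 21233 in LHCB5, 18.3% of 9031 in LHCB6, 18.1% of 12798 in CA1 and 17.4% of 13064 in PSBO1 of the oxygen-evolving complex, so that no single level was typical of these genes. LHCA4, with 15.5% of 26487 reads, and LHCB4.1, with 15.2% of 8711, had the lowest such shares among the 26 members with 1000 pairs or more. The 3 most used ends together took 43.6% of the reads in LHCA4 and 40.2% in LHCB4.1, but 37.5% in PSBO1.

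Over those 26 members the read share of the most used end had a median of 33.9% and ran from 15.2 to 73.9%, beside a median of 32% in the remaining transcripts of any depth. Members with 100 to 199 pairs had a median of 12.6%, against 32.1% in the other transcripts of that class. With 50 to 99 pairs the medians were 12.7% in members and 32.5% in the others. Random bases at the 5′ end of the reads had been removed before alignment, and no molecular identifier was used here. Whether reads with the same pair came from separate molecules is therefore not known. Neither reads nor pairs count molecules, and which of the counts lies closer to them was not tested.

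**Figure D2:**
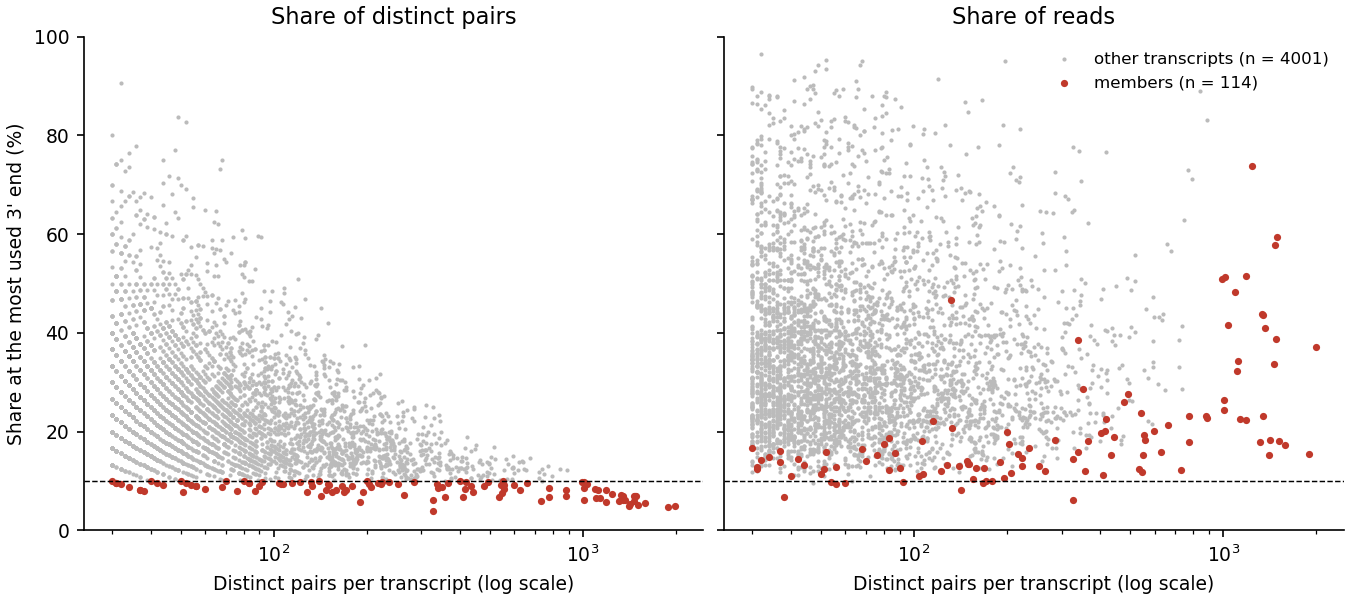
Share at the most used 3′ end (vertical axes, %) against the number of distinct pairs per transcript (horizontal axes, log scale), by pairs on the left and by reads on the right, for the 114 members and 4001 other transcripts; the dashed line is the limit of 10%. By pairs all members lie at or below the line by construction, whereas by reads the members with 1000 pairs or more lie between 15.2 and 73.9%.

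When each transcript was reduced to its first 100 reads in the order of the deposited alignments, 20 transcripts met the rule, 16 of them members. None of the 26 members with 1000 pairs or more was among them. In these 26 the median share of pairs at the most used end was then 23.5%, beside 25.9% in the other transcripts with at least 100 reads. The 32 members with fewer than 200 pairs that had 100 reads reached a median of 10.4%, and 13 of them met the rule. The members that met it at 100 reads included CRY1, a blue-light photoreceptor, ERF4, an ethylene-responsive transcription factor, EXPA6, a cell wall-loosening expansin, SSI2, GAE6 and RPS18C.

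Few transcripts stayed at or under 10% by both counts. By reads 9 of the 114 members did, and 2 further transcripts did that were not members (SMU1 and CP1). The 9 were ATMG01390, AT2G16586, AT2G11910, AT1G64680, ENH1, CBR, EMB2753, AT4G09830 and SSI2. Reads with a mapping quality of 0 or 1 made up 100% in AT2G11910, EMB2753 and SSI2, 92.7% in AT1G64680 and 71.4% in ENH1. Their share was 0.546% in CBR, 1.7% in AT2G16586, 2.44% in AT4G09830 and 2.59% in ATMG01390. For ATMG01390, by its name a locus of the mitochondrial genome, the most used end took 38 of 619 reads, 6.14% (4.38 to 8.33). This was the only interval of all 4115 transcripts wholly under 10%, so no nuclear transcript had such an interval. For CBR the end with the most reads took 35 of 366, 9.56% (6.75 to 13.0). For AT2G11910 it took 20 of 246, 8.13% (5.04 to 12.3), and for SSI2 28 of 280, 10% (6.75 to 14.1). The interval included 10% in 38 members, which at this depth cannot be placed on either side of it, and lay wholly above 10% in 75, among them all 26 with 1000 pairs or more and 13 of the 48 with fewer than 200.

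The read share of the most used end was up to 10% in 9 members, above 10 and up to 20% in 69, above 20 and up to 30% in 18, above 30 and up to 50% in 12, and higher in 6. In all 4115 transcripts the same classes held 11, 602, 1175, 1544 and 783. By reads the members thus covered most of the range of the other transcripts.

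The values on either side of the limit were close. AT1G21500, an uncharacterized protein, had 55 of 550 pairs at its most used end, AT4G13615 20 of 200 and AT2G20420, annotated as an ATP citrate lyase family protein, 14 of 140, each 10%. Just outside lay GRP2, a glycine-rich RNA-binding protein, with 41 of 409 pairs (10.02%), AT1G74470 with 74 of 738 (10.03%) and CB5-D, a cytochrome b5, with 36 of 359 (10.03%). By reads the shares were 15.3, 19.9 and 13.1% in the 3 members and 23.8, 28.7 and 16.7% in the 3 others.

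The profiles of single genes differed in kind. The ends of CRY1 lay at 46 positions over a zone of 128 nt, where the zone runs from the 5th to the 95th percentile of the pairs, and the 3 most used ends took 25.4% of 342 reads. In RPS18C, 88 positions were used over 71 nt, and 6 ends each took at least 5% of 3345 reads. PSBR used 101 positions over 99 nt, and its 3 most used ends took 79.1% of the reads. UBQ3, which was not a member, used 24 positions over 45 nt. With 50.8% of its 120 pairs at 1 end it led the transcripts with 100 pairs or more, before RPS28, a ribosomal protein (49.1% of 108 pairs), and DHAR1 (48.1% of 108).

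**Figure D3:**
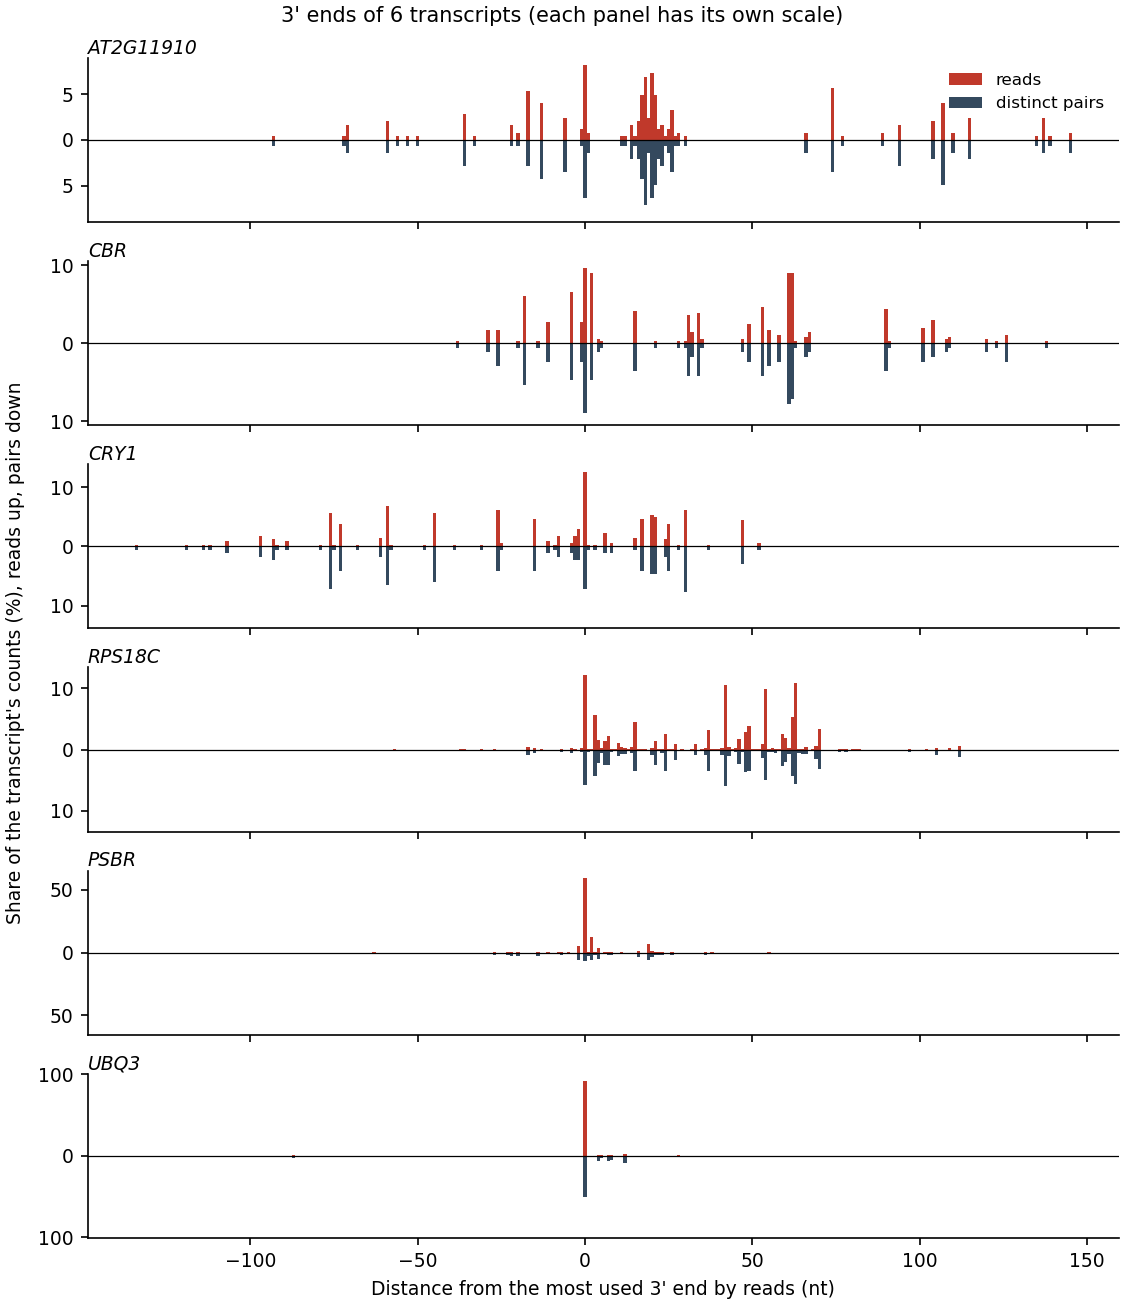
Share of reads (upward bars, %) and of distinct pairs (downward bars, %) at each 3′ end, by distance in nt from the end with the most reads, in 5 members (AT2G11910, CBR, CRY1, RPS18C, PSBR) and in UBQ3; each panel has its own scale. The 3 most used ends took 25.4% of the reads in CRY1 and 79.1% in PSBR, whose pairs are spread over many low bars.

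The median width of the zone of ends was 140.5 nt in the members, 102 nt in the 3815 remaining transcripts, and 58.5 nt in the 186 with a concentrated end, defined as 50% or more of the pairs at 1 position. Since an end can hold at most 122 pairs, transcripts with many pairs cannot enter this last group. It held 30 to 120 pairs per transcript, with a median of 41, beside medians of 275 in the members and 60 in the remaining transcripts. Comparisons with it are therefore not matched for depth. When ends within 24 nt of each other were joined into chains, 37 members had 1 chain, 35 had 2 and 42 had 3 or more. The median was 2 chains, with quartiles of 1 and 3, in the members and in the remaining transcripts alike. The median of 2 chains became 6 when only ends within 10 nt were joined, beside 5 in the remaining transcripts. The largest chain held at least 90% of the pairs in 89 members and under 60% in 13. At the median it held 99.4% of the pairs in the members and 96.5% in the remaining transcripts. With 200 pairs or more the median width of this chain was 190.5 nt in the members and 142 nt in the remaining transcripts, and with fewer pairs 119 and 78 nt. Of the bases in the zone that were not A, 63.6% at the median served as an end in members with 200 pairs or more, and 24.8% in those with fewer. The remaining transcripts had 46.8 and 22.4% in the same classes of depth. These widths, chains and shares come from the same ends that chose the groups, so they are descriptions only.

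The narrowest zones among members with 100 pairs or more were those of LP1, a lipid transfer protein (53 nt), SAC52, ribosomal protein L10 (56 nt), RPS18C (71 nt), ARFA1E, a small GTPase of vesicle traffic (73 nt), and AT4G27090, ribosomal protein L14 (74 nt). In ARFA1E, 63 positions were used, and the end with the most reads took 11.9% of 1870. The widest zones were those of ATMG01390 (1796 nt, 23 chains), AT2G01010 (1590 nt, 19 chains), ADT5, an arogenate dehydratase of phenylalanine synthesis (1582 nt, 4 chains), GAE6, a UDP-glucuronate epimerase of pectin synthesis (370 nt, 5 chains), and CAO, a chloroplast signal recognition particle component (288 nt, 4 chains). CA1, a carbonic anhydrase, had the same width as CAO.

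Several members had unusual ends. AT2G01010 had 46.7% of its 375 reads (41.5 to 51.9) at the last base of the annotated RNA, and its pairs formed 19 chains over 1590 nt, so that its pairs were scattered while its reads were not. All of its reads had a mapping quality of 0 or 1, which marks reads that fit elsewhere as well. ATMG01390 has the name of a mitochondrial locus. It was not in the annotation used, which covered the nuclear chromosomes, and could not be placed. Of the 114 members, 112 were protein-coding nuclear genes. In AT1G07590, annotated as a tetratricopeptide repeat protein, the median end lay 1794 nt before the stop codon, with 41.7% of 16376 reads at 1 end in a zone of 78 nt. In AT2G16586, with 59 reads, it lay 448 nt before the stop codon. The end with the most reads in AT5G11090, 16.4% of 134, was followed by 18 genomic A's. Of the 109 members with an annotated stop codon, AT1G07590 and AT2G16586 were the only 2 whose median end lay before it.

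Pooled over all depths, the distance of the ends from the stop codon was much like that in the remaining transcripts. The median distance from the stop codon to the median end was 183 nt in the members, 181 nt in the remaining transcripts and 163.5 nt in those with a concentrated end. Among transcripts with fewer than 200 pairs this distance was 210.5 nt in the members and 182 nt in the remaining transcripts. At 200 pairs or more the order was reversed, with 166 nt in the members and 172 nt in the remaining transcripts. LARP1c, a La-related RNA-binding protein, was far from these with 1202 nt, on 34 pairs, whereas most members lay in the ordinary range. From the median end to the annotated transcript end the medians were 145 nt in the members, 107 nt in the remaining transcripts and 74 nt in those with a concentrated end. The annotated 3′-UTR was 353, 304 and 263 nt long at the median. The alignments are given as positions within transcripts, although the study's methods name the genome as their target. Whether ends past the authors' transcript models were lost was not tested. Transcripts with ends past the RefSeq model, among them ERF4, CLE41 and GGPS1, are not in these distances. Only 1.05% of the pairs, as a mean over members, lay within 5 nt of the annotated end, beside 3.79% in the remaining transcripts and 11.1% in those with a concentrated end.

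The next gene downstream had the usual orientation in the members but lay farther away at the median. Of the 110 members that could be placed on the genome, 81 (73.6%) came from genes with a single annotated transcript, against 65.3% of the remaining transcripts. The next gene downstream was convergent for 39.1% of the members and for 40.6% of the remaining transcripts. The most used end lay inside a gene on the other strand in 4 members, LHCB6, LHB1B2, DER2.1 and LHCB3. The same count was not made for the other transcripts. For LHB1B2 they were the lncRNA AT2G08665 and RWA3, with 32438 and 5824 minus-strand alignments, beside 32884 plus-strand alignments of LHB1B2. For LHCB3 it was ATM2, with 7905 beside 17797. For LHCB6 and DER2.1 the other gene had 491 and 17, beside 9031 and 193. These are totals per gene, and whether the minus-strand alignments came from the same ends was not tested.

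The AATAAA hexamer was rare before the ends of the members. The rule did not read the genomic sequence. Removal of the tail also takes genomic A's, however, so the measured ends depend in part on that sequence. Transcripts are not replicates and there was 1 library, so the values stand side by side with no test. AATAAA, read on the transcript strand, lay 10 to 35 nt before the most used end by reads in 2 of 110 members, RBCS1A and AT1G01630, a share of 1.82% (0.221 to 6.41). It did so in 12.4% (11.4 to 13.5) of the 3765 remaining transcripts and in 27.2% (20.7 to 34.4) of the 173 with a concentrated end. Over all 990514 bases other than A in the annotated 3′-UTRs of these transcripts, 2.51% had AATAAA in this window. Members with fewer than 200 pairs had 2.22% (0.0562 to 11.8) and the remaining transcripts of that depth 12.6% (11.5 to 13.8), intervals that overlapped slightly. With 200 pairs or more, 1.54% (0.0389 to 8.28) stood beside 10.1% (7.13 to 13.8), which also overlapped. Overlap of intervals was not used as a test.

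Over all pairs of a transcript the order of the groups was the same. In 90 of the 110 members (81.8%) no pair at all had AATAAA in the window, as was so in 73.2% of the remaining transcripts and 60.7% of those with a concentrated end. The mean over transcripts of the share of pairs was 1.95% in the members, 9.70% in the remaining transcripts and 23.8% in those with a concentrated end. Exceptions among the members were RBCS1A with 35.6% of its pairs, RAB6A, a small GTPase, with 31.3%, TRX3, a thioredoxin, with 28.0%, AT1G01630 with 21.6% and AT2G20420 with 20.7%. A zone spread over many bases cannot lie within the reach of a single hexamer, so part of this measure follows from the width of the zone. Counting the zone as a whole, 12 of 110 members (10.9%, 5.77 to 18.3) had AATAAA 10 to 35 nt before any base of it, beside 23.6% (22.29 to 25.03) of the remaining transcripts, whose zones were narrower, and 35.3% (28.2 to 42.9) of those with a concentrated end.

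Looser forms of the hexamer were more frequent in every group. AATAAA or a sequence differing from it at 1 base lay in the window before the most used end in 33 of 110 members, 30% (21.6 to 39.5). The share was 46.5% (44.9 to 48.1) in the remaining transcripts and 63.0% (55.4 to 70.2) in those with a concentrated end, and 20.98% of all the 3′-UTR bases counted. TGTA, a tetramer written as UGUA in the RNA that is bound by the CFIm complex in animals, lay within 100 nt before the most used end in 57.3% (47.5 to 66.7) of the members. It did so in 68.1% (66.6 to 69.6) of the remaining transcripts, 76.9% (69.9 to 82.9) of those with a concentrated end, and 46.9% of all 3′-UTR bases counted. A match of letters is no proof of a working element.

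**Figure D4:**
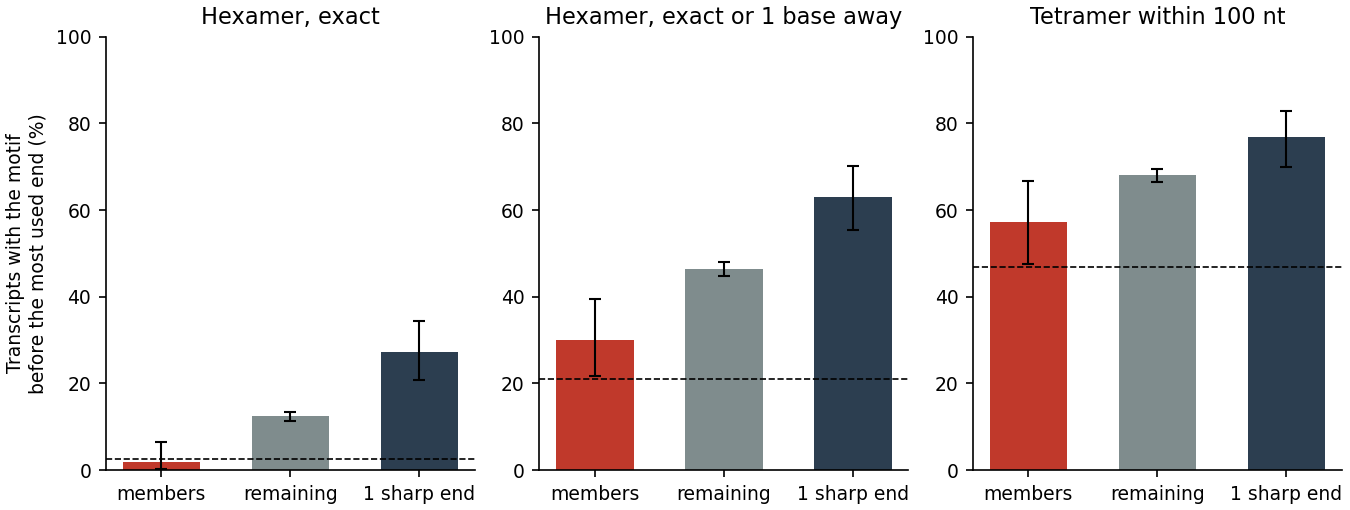
Share of transcripts (%) with AATAAA 10 to 35 nt before the most used end (left), with AATAAA or a hexamer 1 base away in the same window (middle) and with TGTA within 100 nt (right), for 110 members, 3765 remaining transcripts and 173 with a concentrated end; error bars are 95% Clopper-Pearson intervals and the dashed line is the share over all bases other than A in annotated 3′-UTRs. The exact hexamer was found for 1.82% of members, 12.4% of remaining transcripts and 27.2% of those with a concentrated end.

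The share of A just upstream of the ends followed the same order. At 20 nt before the last base kept, A made up 34.8% of the pairs as a mean over members with fewer than 200 pairs, and 33.6% in members with 200 or more. It made up 39.1% in the remaining transcripts with fewer than 200 pairs and 44.8% in those with a concentrated end. The A-rich hump upstream of the end was therefore present in the members, and lower than in the remaining transcripts with fewer than 200 pairs. The remaining transcripts with 200 pairs or more were not profiled by position. Over the whole 60 nt before the ends, T had medians over transcripts of 41.8% in the members and 40.4% in the remaining transcripts. With 200 pairs or more the medians were close, at 42.1 and 42.3% for T and 26.2 and 26.1% for A. With fewer pairs they were 40.9 and 40.3% for T and 26.6 and 28.4% for A. Within the zone itself A made up 25.9% at the median in the members, 28.8% in the remaining transcripts and 31.8% in those with a concentrated end. How far removal of the tail, which takes genomic A's, bears on this order was not tested.

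By pairs, the base after the end was A less often than in the other transcripts. It was A for 63.5% of the pairs at the median over members, for 78.6% over the remaining transcripts and for 90% over those with a concentrated end. By reads the medians over transcripts were 74.5% in the members and 84.8% in the remaining transcripts, whereas pooled over all reads the values were 78.6 and 80.4%. Pooled over the reads of transcripts with fewer than 200 pairs they were 67.8 and 79.9%. Counted over the most used end alone, 86.4% (78.5 to 92.2) of the members had A next, beside 90.2% (89.2 to 91.1) and 97.7% (94.2 to 99.4). Removal of the tail takes A's from the end of a read, so that cleavage within a run of genomic A's appears at the base before the run. Some ends on A were left, 3.24% of the pairs at the median over members. The share of the members' ends set by this step was not tested. The last base kept was T at 54.5% (44.8 to 64.1) of the members' most used ends, C at 37.3% (28.2 to 47.0) and G at 8.18% (3.81 to 14.96).

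**Figure D5:**
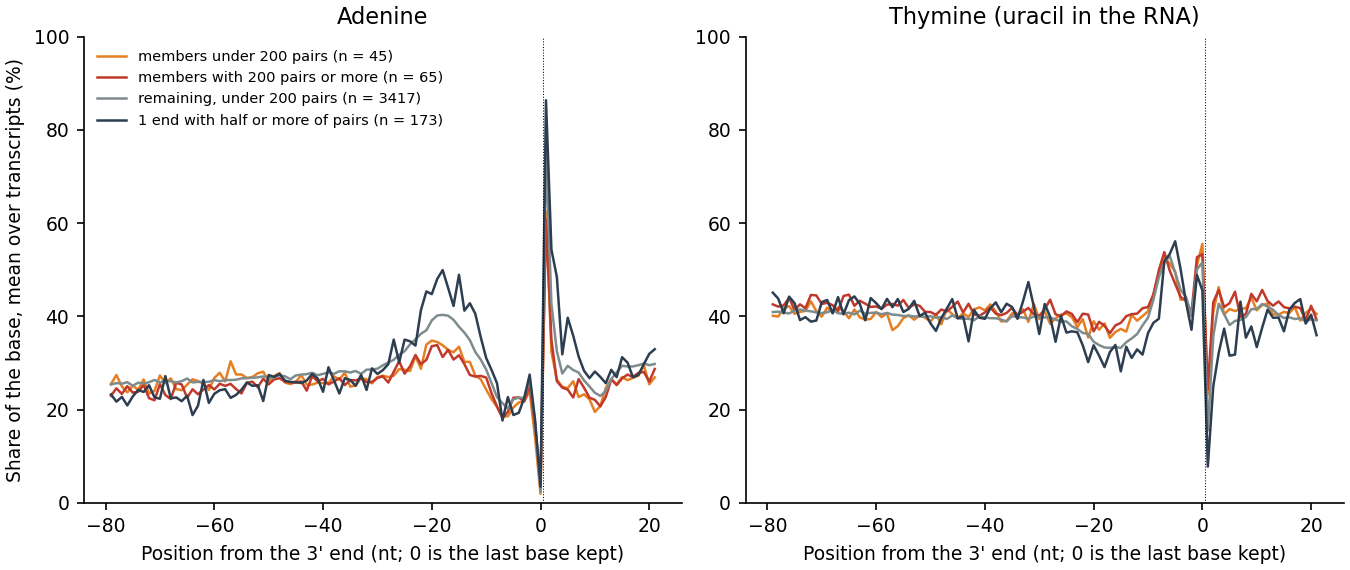
Share of A (left) and of T (right) at each position from the last base kept, position 0, to positions before and after it (horizontal axes, nt), as means over transcripts of the mean over pairs (vertical axes, %), for members with fewer than 200 pairs (n = 45) and with 200 or more (n = 65), remaining transcripts with fewer than 200 pairs and those with a concentrated end (n = 173). At 20 nt before the end A was at 34.8, 33.6, 39.1 and 44.8% in these groups.

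The lists with the most deeply read transcripts held the largest shares of members. Of 51 photosystem and light-harvesting transcripts with 30 pairs or more, 18 (35.3%) were members, beside 2.77% of all, and their median number of pairs was 616. None of the 11 with fewer than 200 pairs was a member. Their values by reads ranged from 15.2% at the most used end in LHCB4.1, a minor antenna protein, to 73.9% in LHB1B2, with PSBW of photosystem II at 17.8%, PSBP-1 of the oxygen-evolving complex at 17.9% and PSAO of photosystem I at 51.3%. Ribosomal protein transcripts gave 13 members of 237 (5.49%), with a median of 141 pairs over the 237, and 2 of the 161 with fewer than 200 pairs. In RPL34 the most used end took 12.5% of 2355 reads and in AT3G14600, ribosomal protein L18ae, 12.1% of 721.

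Cell wall proteins gave 4 members of 75 (5.33%), beside 2.77% of all transcripts. The list had 66 transcripts with fewer than 200 pairs, and all 4 members were among them. These were the expansins EXPA6 (12.6% of 190 reads at the most used end) and EXPA8 (13.5% of 385), the arabinogalactan protein FLA8 (22.1% of 389) and the pectin lyase-like AT1G04680 (14.0% of 150). Among members with fewer than 200 pairs, 48 in all and 1.30% of the 3698 transcripts of that depth, were genes of hormone and light signalling. These included TIR1, an auxin receptor (12.1% of 173 reads), HK3, a cytokinin receptor (16.0% of 75), ABI1, a phosphatase of abscisic acid signalling (17.4% of 184), JAZ1, a repressor of jasmonate responses (14.5% of 55), KAI2, a karrikin receptor (20.7% of 323), and CRY1 (12.6% of 342). They were picked here after their values were seen, and no count over such genes was made.

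The other lists gave shares near that of all transcripts or no member. Transcription factors gave 1 of 40, which was LARP1c, placed there by the words of its product name. ERF4 was not counted, since its product name does not hold the words used, so this list does not cover the whole class. RING and zinc finger proteins gave 2 of 75 (STO and SZF1) and RNA-binding proteins 1 of 60 (DRB2, a double-stranded RNA-binding protein). Ubiquitin conjugation gave 2 of 59 (the conjugating enzyme UBC10 and the protease UBP13), heat shock and chaperone proteins 1 of 48 (the chaperonin AT3G03960), and transporters and aquaporins 2 of 67 (the aquaporins GAMMA-TIP and PIP3). Histones gave 0 of 28, proteasome subunits 0 of 22 and protein kinases 0 of 79. Of 28 genes of the cleavage and polyadenylation machinery and its poly(A)-binding proteins, only 4 had a transcript with 30 pairs or more, and none of these was a member. They were PAB2, with 21.01% of 828 reads at its most used end, PAB4 with 44.4% of 90, PABN2, a nuclear poly(A)-binding protein, with 18.9% of 90, and CFIS2, a subunit of cleavage factor I, with 57.1% of 63.

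Mapping left the transcript or the gene of origin uncertain for reads of some members, as it did in other transcripts. In 26 members at least 50% of the reads had a mapping quality of 0 or 1, and 23 of these came from genes with more than 1 annotated transcript, such as CA1, RBCS1A and SSI2. Reads of near-identical copies, such as RBCS3B among the Rubisco small subunits or LHB1B2 among the antenna genes, could have been assigned to either copy. In 83 members under 5% of the reads had a mapping quality of 0 or 1. As a mean over transcripts the share of such reads was 22.7% in the members and 31.8% in the remaining transcripts.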

How the data were processed

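Of the series, the poly(A)-seq library of Col was analysed here. In the deposited file the authors gave each alignment as a transcript name, start, end and strand in nt, with a mapping quality score from 0 to 42. Per the study's methods, reads with a recognizable 3′-adaptor were kept, the random bases, adaptor and tail (A's with a few interspersed G's) were removed, and the rest was aligned with Bowtie2. Removal of duplicates was not stated for this library. The methods name the genome as the target of alignment, but the file gives positions within TAIR10 transcripts, and these were placed on RefSeq TAIR10.1 by name where all positions lay within the annotated length (4048 of 4115 transcripts, 110 of 114 members).

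Pairs, shares, zones (5th to 95th percentile) and chains (ends within 24 nt) were computed with Python 3.11.15, pandas 2.3.3 and numpy 2.4.6, and intervals with scipy 1.17.1. The code was tested on simulated data. With 1 library and no groups, no test was made and values are set side by side. The members and lists were chosen with earlier results of these data known. Genes were named by rule: the 10 members with most pairs, the 5 with the lowest share at 1 end, the 5 widest and 5 narrowest zones (100 pairs or more), 3 on each side of the limit, 3 contrasts and list members. Others were named after their values were seen. The rule's lists were read from product names. Alternatives changed mapping quality, counting unit, thresholds, depth, windows and joining distance.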

Additional observations from a re-analysis of the deposited data

How the results depend on the processing

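Of 33 alternatives for 7 results, 9 stayed within 1.5 times the number of members or within the interval of the value, and 24 did not. The number of members was 114. It was 73 with a mapping quality of at least 10, which left 2731 transcripts with 30 pairs, 91 of them members (2.67% met the rule), 11 with every read counted, 4 with a limit of 5%, 754 with 15% and 1637 with 20%, 19 with 3 adjacent bases summed and 186 with both strands. Among alternatives chosen after seeing the data, it was 20 with the first 100 reads, 20 with the first 200, and 9 when pairs and reads both met the limit. The number ran from 87 to 135 under the other alternatives. The median zone of 140.5 nt was 115.5 nt between the 10th and 90th percentile and 122 nt by reads, and 163 nt in members with fewer than 200 pairs. The median of 2 chains became 6 when ends within 10 nt were joined and 1 within 50 nt. Pooled over the members' pairs, AATAAA preceded 1.91%, and 2.16% in a window of 5 to 40 nt, 24.6% with 1-base variants and 2.97% under 200 pairs. A followed 59.1% of pairs, 42.2% of distinct ends, 78.6% of reads and 63.2% of pairs under 200 pairs. T made up 41.7% of the 60 nt upstream, 42% of 100 nt and 40.7% under 200 pairs. The median distance from the stop codon, 183 nt, was 210.5 nt under 200 pairs. The restrictions to fewer than 200 pairs were also chosen after seeing the data. For the narrower or wider windows, limits and joining distances the change follows from their construction, and for the rest the cause was not tested. No paired analysis was possible because poly(A)-seq covered a single group. At the first 100 reads, 0 of the 26 members with 1000 pairs or more met the rule, and 13 of 32 with fewer than 200 pairs. By reads 38 members had an interval that includes 10%.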
